A study of Mus musculus with 8 samples.

Results

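The genes described here encode the proteasome, its regulators and its assembly factors. They were found by their symbol (Psma, Psmb, Psmc, Psmd, Psme, Psmf or Psmg followed by a number), and 50 of the 19938 genes measured met this rule. Total RNA of 4 MHC-Plin5 hearts and of 4 control hearts was labelled with a whole-transcript kit and hybridised to Affymetrix arrays. All 8 mice were males of the c57/bl background and 12 weeks of age, and all hearts carry the label fasted. Per the title of the series and the genotype labels, perilipin 5 (Plin5), a protein that coats lipid droplets, was overexpressed in cardiomyocytes of the MHC-Plin5 mice. The promoter of a myosin heavy chain gene, abbreviated MHC, is commonly used to drive transgenes in these contracting cells. The labels do not say whether 1 or several transgenic lines were used, or whether the controls were littermates.

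The proteasome is the protease that degrades most ubiquitin-tagged proteins of the cytosol and nucleus. Its 20S core is a barrel of stacked rings, with outer rings of alpha subunits (Psma) that gate the entry and inner rings of beta subunits (Psmb), some of which carry the proteolytic sites. The 19S cap binds the core, recognises ubiquitin chains, removes them and unfolds the substrate with a ring of ATPases (Psmc) and further subunits (Psmd). Other activators (Psme) can replace the cap, and inflammatory signals exchange the catalytic subunits for the immune forms Psmb8, Psmb9 and Psmb10. In cardiomyocytes the proteasome turns over sarcomere proteins and removes damaged proteins.

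Plin5 itself was measured at log2 levels of 8.92, 8.87, 9.04 and 8.58 in control 1 to 4 and of 12.17, 12.69, 12.63 and 12.08 in MHC-Plin5 1 to 4. Every MHC-Plin5 heart lay above every control heart, by 3.54 (SE 0.16) between the means, with a limma adjusted p of 6.9e-07 and an exact two-sided permutation p of 0.0286, the smallest that 4 against 4 hearts can give. The cardiomyocyte markers, 8 of 8 measured, had mean levels over the 8 hearts of 12.37 to 14.16, and 0 of them were called. Of these markers 6 had a difference below 0 and 2 above, with a median of -0.11. Tnni3 (-0.16) and Pln (-0.11) lay wholly below the control hearts and Mybpc3 (0.23) wholly above. Control 2 and MHC-Plin5 4 had the highest array medians, 6.25 and 6.18, and the other 6 arrays had 5.99 to 6.04. Results that rest on these 2 hearts are given with and without them. The tissue was bulk heart, so fewer cells of a type and less RNA per cell cannot be told apart. Each heart was taken as 1 animal, since the design text counts 4 mice in each group.

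Promoter sequences are shown for 4 members of different roles, namely an alpha subunit that rose, a catalytic subunit and a lid subunit that were not called, and the activator subunit that fell. RefSeq windows of 300 bases (build GRCm38.p6, from 250 bases before to 50 bases after the annotated start) were found for 42 of the 50 genes. Capitals mark matches, on either strand, to the antioxidant response core TGACNNNGC, which is read by the NRF1 and NRF2 factors, to the interferon response core GAAANNGAA, or to CCAAT.
Psma5, chr3:108256676-108256975, plus strand: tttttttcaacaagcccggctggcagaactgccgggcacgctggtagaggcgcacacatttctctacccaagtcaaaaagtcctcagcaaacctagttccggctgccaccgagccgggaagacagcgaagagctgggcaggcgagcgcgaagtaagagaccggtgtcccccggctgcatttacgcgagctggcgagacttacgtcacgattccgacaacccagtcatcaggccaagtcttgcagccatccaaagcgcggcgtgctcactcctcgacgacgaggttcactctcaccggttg
Psmb5, chr14:54617946-54618245, minus strand: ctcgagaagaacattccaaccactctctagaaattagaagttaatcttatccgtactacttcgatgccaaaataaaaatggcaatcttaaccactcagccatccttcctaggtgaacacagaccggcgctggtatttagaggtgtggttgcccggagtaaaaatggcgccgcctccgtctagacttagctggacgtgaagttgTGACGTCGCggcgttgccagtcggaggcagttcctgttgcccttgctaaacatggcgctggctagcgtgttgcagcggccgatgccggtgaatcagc
Psmd8, chr7:29180624-29180923, minus strand: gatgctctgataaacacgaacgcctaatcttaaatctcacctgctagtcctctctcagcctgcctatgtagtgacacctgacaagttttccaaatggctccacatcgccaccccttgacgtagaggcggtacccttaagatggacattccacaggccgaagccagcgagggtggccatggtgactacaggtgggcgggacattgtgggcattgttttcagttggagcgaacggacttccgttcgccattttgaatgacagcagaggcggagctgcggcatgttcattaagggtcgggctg
Psme1, chr14:55578244-55578543, plus strand: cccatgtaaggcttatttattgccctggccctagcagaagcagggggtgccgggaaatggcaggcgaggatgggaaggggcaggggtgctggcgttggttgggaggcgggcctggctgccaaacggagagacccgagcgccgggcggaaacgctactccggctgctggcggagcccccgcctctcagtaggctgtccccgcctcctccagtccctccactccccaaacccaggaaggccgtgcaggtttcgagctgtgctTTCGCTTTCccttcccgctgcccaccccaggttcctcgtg
Psma5 and Psmd8 hold none of these 3 motifs in the window. Psmb5 holds the antioxidant response core at position -47 from the start, and Psme1 holds the interferon response core, in reverse, at position 10. Over all members with a window, 6 of 42 (14.3%) held the antioxidant response core, namely Psmb5, Psmb6, Psmc6, Psmd9, Psmd12 and Psme4, against 12.5% of 27025 promoter windows. The interferon response core was in 6 of 42 (14.3%, against 8.57% of all), and CCAAT in 15 of 42 (35.7%, against 37.9%). A heat shock core, GAANNTTC, was in 3 of 42 (7.14%, against 7.95%), and the amino acid response core TGATGNAA in 1 of 42, Psmd13 (2.38%, against 4.06%). A match is a run of letters and not a measured binding site.

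The proteasome did not move as 1 block in MHC-Plin5 hearts. The core subunits Psma5 and Psmb1, the immune subunit Psmb10 and the cap subunit Psmd7 rose by 1.33-fold to 1.45-fold, and the activator subunit Psme1 fell 1.73-fold. A gene is called here when its two-sided limma p, adjusted by Benjamini and Hochberg over all 19938 genes, is under 0.05. So 4 of 50 members were called higher, where 2.08% of all genes were, and 1 lower, where 1.17% were. In either direction 10% of the members were called, against 3.25% of all genes. Most members have well-measured levels, and 46 of the 50 had a mean of at least 7. In a fit of the 8899 genes with such a mean 8.84% were called, and 8 of the 46 members. These 8 were the same 5 genes with Psmd4, Psmd8 and Psmd11. The median log2 difference was 0.10 over the 50 members and -0.03 over all genes, and 78% of the members had a difference above 0, where 42.5% of all genes did. Low-level genes lower these 2 values for all genes. Of the 8899 genes with a mean of at least 7, 54.3% had a difference above 0, with a median of 0.02. The 4 MHC-Plin5 hearts lay wholly above the 4 control hearts in 11 members, where 6.24% of all genes did so, and wholly below in 1, where 5% did. Most calls were lost when 1 heart was left out, with the exception of MHC-Plin5 4. When control 1, 2, 3 or 4 was left out, or MHC-Plin5 2 or 3, the count of called members was 0 in limma (11 to 14 had an unadjusted p under 0.05), and 1.17% to 1.73% of all genes were called. In these 6 fits the differences were 0.45 to 0.55 for Psma5, 0.38 to 0.44 for Psmb1, 0.43 to 0.58 for Psmb10, 0.40 to 0.46 for Psmd7 and -0.81 to -0.68 for Psme1. Psme1 alone was called without MHC-Plin5 1, where 3.42% of all genes were, and 6 members without MHC-Plin5 4, where 5.89% were.

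**Figure D1:**
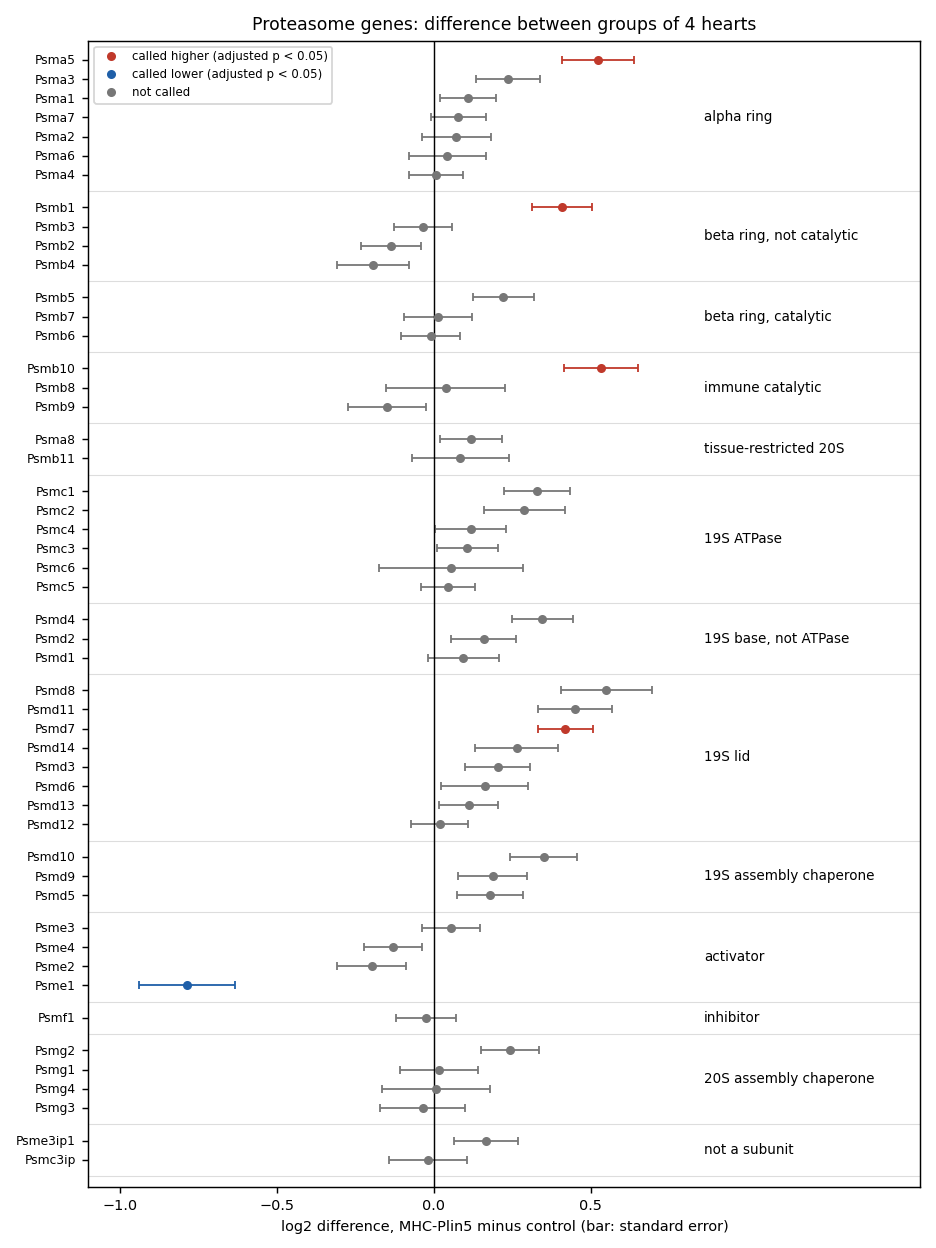
Log2 difference (MHC-Plin5 minus control, horizontal axis, bar 1 standard error from limma) of each of the 50 genes, grouped by role. Red points mark genes called higher, blue genes called lower and grey genes not called. All 20 cap genes with the symbols Psmc and Psmd, the chaperones included, lie right of 0 (18 after a further quantile normalization), and Psme1 lies farthest to the left at -0.79.

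The alpha ring was represented by 7 genes, Psma1 to Psma7, of which 1 was called higher and 0 lower. The median log2 difference was 0.08 and all 7 lay above 0. Psma4 and Psma6 were below 0 after a further quantile normalization, without control 4 and without MHC-Plin5 1. Over the settings run their lowest differences were -0.04 and -0.03. Psma5 had log2 levels of 8.04, 8.10, 7.89 and 8.05 in control 1 to 4 and of 8.55, 8.58, 8.77 and 8.28 in MHC-Plin5 1 to 4. The groups did not overlap, and MHC-Plin5 4 was the lowest of its group. The difference was 0.52 (SE 0.11, adjusted p = 0.0335), or 1.44-fold. A second row of the array carries the symbol Psma5 with nearly the same mean level. There the difference was 0.50 (SE 0.11, adjusted p = 0.0325), and the value of MHC-Plin5 4 was 8.75, the highest of its group. Psma3 came next among the alpha subunits with 0.24 (SE 0.10, adjusted p = 0.279) and had 3 rows with differences of 0.24, 0.24 and 0.23. The other 5 alpha genes lay between 0.01 for Psma4 and 0.11 for Psma1. Rows of 1 gene may also bind transcripts of processed copies elsewhere in the genome, which these files do not tell apart.

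Among the beta subunits that have no proteolytic site, Psmb1 was called higher and Psmb2, Psmb3 and Psmb4 had differences of -0.14, -0.03 and -0.19 with adjusted p values of 0.448 to 0.907. A second array row of Psmb3 had the opposite sign, at 0.04 (SE 0.11, adjusted p = 0.887). Psmb1 stood at 9.41, 9.58, 9.52 and 9.40 in control 1 to 4 and at 9.90, 9.84, 9.79 and 10.03 in MHC-Plin5 1 to 4. Here too the groups did not overlap, and MHC-Plin5 4 was the highest heart. The difference was 0.41 (SE 0.10, adjusted p = 0.0424), or 1.33-fold. This call was the closest to the threshold among the 5. It also ended without MHC-Plin5 4 (adjusted p = 0.0515) and without both that heart and control 2 (adjusted p = 0.0519), fits in which the other 4 were called. Beta subunits of the same ring thus had differences on both sides of 0, from -0.19 to 0.41.

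**Figure D2:**
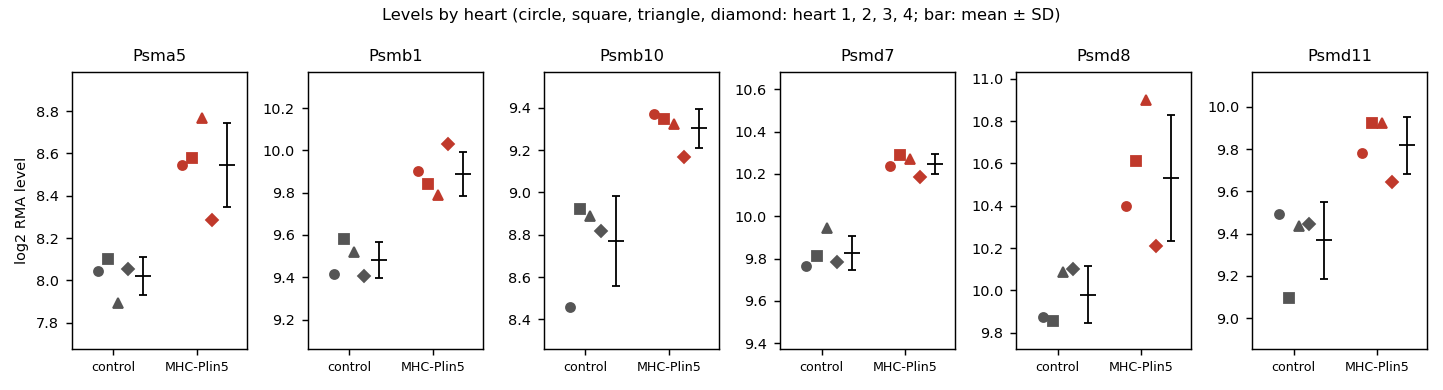
Log2 RMA level (vertical axis) in each heart of the 4 genes called higher and of the lid genes Psmd8 and Psmd11, which were not called. Grey symbols are control and red symbols MHC-Plin5 hearts, with symbol shape for the heart number and mean ± SD (n = 4) beside them. In all 6 panels each MHC-Plin5 heart lies above each control heart, and MHC-Plin5 4 is the lowest of its group in each panel but that of Psmb1.

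The 3 constitutive catalytic subunits, Psmb5, Psmb6 and Psmb7, cut after hydrophobic, acidic and basic residues respectively, and 0 of the 3 were called. Psmb5 lay at 12.19, 12.20, 12.05 and 12.05 in control 1 to 4 and at 12.26, 12.30, 12.31 and 12.51 in MHC-Plin5 1 to 4. The groups did not overlap, and the difference of 0.22 (SE 0.10) had an adjusted p of 0.279. Psmb6 was at 10.46, 10.51, 10.68 and 10.63 in control 1 to 4 and at 10.52, 10.53, 10.53 and 10.67 in MHC-Plin5 1 to 4. Psmb7 was at 10.36, 10.59, 10.39 and 10.35 and at 10.48, 10.32, 10.30 and 10.64 in the same order. Both overlapped between the groups, with differences of -0.01 (SE 0.09) and 0.01 (SE 0.11).

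The immune forms that replace them did not move together. Psmb10, the counterpart of Psmb7, was at 8.46, 8.92, 8.89 and 8.82 in control 1 to 4 and at 9.37, 9.35, 9.32 and 9.17 in MHC-Plin5 1 to 4. It was called higher with a difference of 0.53 (SE 0.12, adjusted p = 0.0350), or 1.45-fold, and the groups did not overlap. Psmb8, the counterpart of Psmb5, was at 6.73, 7.32, 6.90 and 7.01 in control 1 to 4 and at 6.85, 6.72, 7.60 and 6.94 in MHC-Plin5 1 to 4. The groups overlapped, with a difference of 0.04 (SE 0.19, adjusted p = 0.948), and the highest heart was MHC-Plin5 3. Psmb9, the counterpart of Psmb6, was at 8.19, 8.62, 8.24 and 8.21 in control 1 to 4 and at 8.05, 8.04, 8.25 and 8.33 in MHC-Plin5 1 to 4. Its difference was -0.15 (SE 0.12, adjusted p = 0.615), and control 2 was the highest heart.

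Each immune gene was also set against its constitutive counterpart within each heart, as a log2 ratio whose shift between the groups shows unequal change of the 2 genes. Together with Psme1 over Psme2 this made 4 ratios, chosen after the values were seen. The ratio of Psmb10 to Psmb7 shifted by 0.52, from -1.65 ± 0.18 to -1.13 ± 0.23 (SD, n = 4 each), without overlap of the groups (exact two-sided permutation p = 0.0286, adjusted over the 4 ratios 0.0571). The ratio of Psmb8 to Psmb5 shifted by -0.18 (exact p = 0.457, adjusted 0.457) and that of Psmb9 to Psmb6 by -0.14 (exact p = 0.400, adjusted 0.457). So 0 of the 3 shifts passed 0.05 after adjustment, and 4 against 4 hearts cannot give less than 0.0286 before it.

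**Figure D3:**
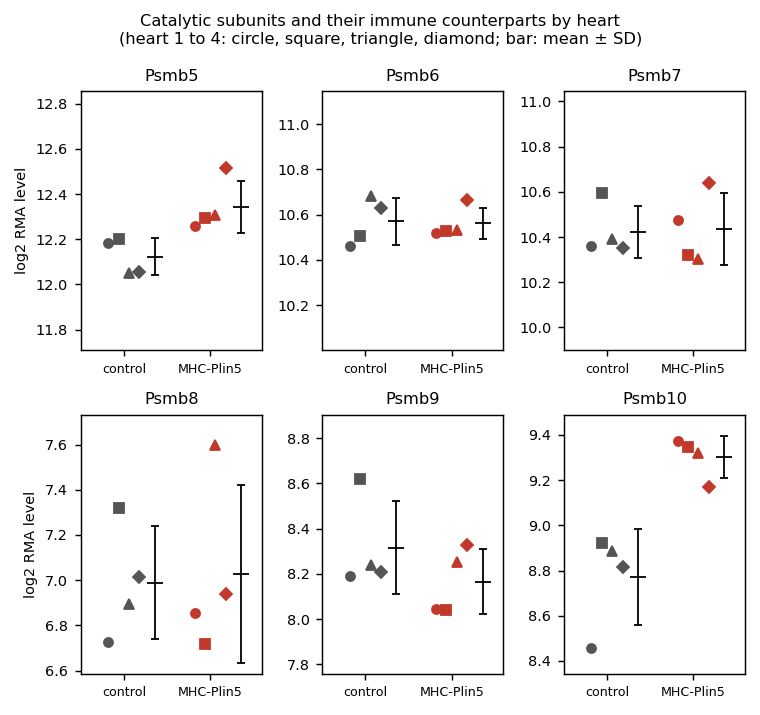
Log2 RMA level (vertical axis) in each heart of the constitutive catalytic genes (top) and of the immune genes (bottom), each below the subunit it replaces. Grey symbols are control and red symbols MHC-Plin5 hearts, with mean ± SD (n = 4) beside them. The groups separate for Psmb10 (at most 8.92 against at least 9.17) and Psmb5 and overlap in the other 4 panels.

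Genes that act with the immune subunits in antigen presentation had 0 of 8 measured members called, with a median of -0.03. The peptide transporter genes Tap1 and Tap2 had differences of 0.03 and -0.03, and Irf1, a transcription factor of the interferon response, -0.04. The 3 with the smallest p were Tapbpl (0.22, adjusted p = 0.367), Nlrc5 (-0.24, 0.410) and Erap1 (-0.13, 0.643). Leukocytes carry much of the immune proteasome of a tissue. Of 11 measured leukocyte markers, 9 had a difference above 0 and 0 were called, with a median of 0.25. The mean over these markers ran from 6.66 to 7.16 in control and from 6.88 to 7.47 in MHC-Plin5 hearts. The markers with the smallest p differed in sign, with 0.40 for Cd14 of monocytes (adjusted p = 0.134) and -0.51 for Cd79a of B cells (adjusted p = 0.251). Cd79a had a low mean level of 4.68, and control 4 stood at 5.67, against 4.50 to 4.87 in the other control hearts. The part of leukocytes in the rise of Psmb10 was not tested.

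All 20 genes of the cap and its chaperones had a difference above 0 (18 after a further quantile normalization, without Psmc5 and Psmd12, and 19 with the array median as a covariate, without Psmc6), with a median of 0.18, while 42.5% of all genes and 54.3% of the genes with a mean of at least 7 lay above 0. With 1 heart left out, 18 lay above 0 without MHC-Plin5 2, and 19 without control 2, control 4, MHC-Plin5 1 or MHC-Plin5 3. Only 1 of the 20 passed the test, and 0 were called lower. Psmd7, a lid subunit that partners the deubiquitinase Psmd14, was at 9.77, 9.81, 9.95 and 9.78 in control 1 to 4 and at 10.24, 10.29, 10.27 and 10.18 in MHC-Plin5 1 to 4. The groups did not overlap, and the difference was 0.42 (SE 0.09, adjusted p = 0.0299), or 1.34-fold. Over the 17 genes of cap subunits proper the median was 0.16, against 0.06 over the 14 constitutive core genes. Without control 2 and MHC-Plin5 4 these medians were 0.22 and 0.11. With 1 heart left out the cap median was 0.12 to 0.20, and the core median was 0.02 without control 4 or MHC-Plin5 1 and 0.11 without control 2. A further quantile normalization gave 0.12 and 0.00.

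Within the cap, the 8 lid genes had a median of 0.23, the 6 ATPase genes 0.11 and the 3 other base genes 0.16. Psmd8 and Psmd11, both of the lid, had larger differences than Psmd7 and a larger spread. Psmd8 was at 9.87, 9.85, 10.09 and 10.10 in control 1 to 4 and at 10.40, 10.61, 10.90 and 10.21 in MHC-Plin5 1 to 4. Its groups did not overlap, and the difference of 0.55 (SE 0.14) had an adjusted p of 0.0680. Psmd11, whose level can limit the assembly of capped proteasomes, was at 9.49, 9.10, 9.44 and 9.45 in control 1 to 4 and at 9.78, 9.92, 9.92 and 9.64 in MHC-Plin5 1 to 4. Its groups did not overlap either, and the difference was 0.45 (SE 0.12, adjusted p = 0.0653). Without MHC-Plin5 4, the lowest MHC-Plin5 heart of both, both were called, at 0.66 (adjusted p = 0.0206) and 0.51 (adjusted p = 0.0347). That fit called 5.89% of all genes. With any other single heart left out neither was called, with adjusted p of 0.0789 to 0.187 for Psmd8 and 0.0938 to 0.194 for Psmd11. Without both control 2 and MHC-Plin5 4 Psmd11 was called (adjusted p = 0.0444) and Psmd8 was not (adjusted p = 0.0555).

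The other lid genes Psmd14, Psmd3, Psmd6, Psmd13 and Psmd12 followed with differences of 0.26, 0.20, 0.16, 0.11 and 0.02 and adjusted p values of 0.355 to 0.945. Psmd14 removes the ubiquitin chain before the substrate enters the core. Among the ATPases, Psmc1 (0.33, SE 0.11, adjusted p = 0.133) and Psmc2 (0.29, SE 0.13, adjusted p = 0.291) were highest and Psmc5 (0.04) lowest. A second array row of Psmc1 had 0.27 (SE 0.12, adjusted p = 0.282). Psmc6 was at 9.81, 9.45, 9.59 and 9.68 in control 1 to 4 and at 9.92, 9.93, 10.07 and 8.85 in MHC-Plin5 1 to 4. So 3 MHC-Plin5 hearts lay above all controls and the fourth below all of them. Its difference was 0.06 (SE 0.23) over all hearts and 0.34 (adjusted p = 0.109) without MHC-Plin5 4. Psmd6 was also lowest in that heart, at 9.19 against 9.74 to 9.79 in the other MHC-Plin5 hearts, and its difference went from 0.16 to 0.31 without it.

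In the base, Psmd4, a receptor for ubiquitin chains, had a difference of 0.35 (SE 0.10, adjusted p = 0.0900) without overlap of the groups. The large scaffold subunits Psmd2 and Psmd1 had 0.16 and 0.09 (adjusted p = 0.495 and 0.750). A second array row of Psmd2 had 0.09 (SE 0.10, adjusted p = 0.725). The assembly chaperones of the base, Psmd10 (gankyrin), Psmd9 and Psmd5, had 0.35, 0.19 and 0.18, with adjusted p values of 0.109, 0.439 and 0.448.

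**Figure D4:**
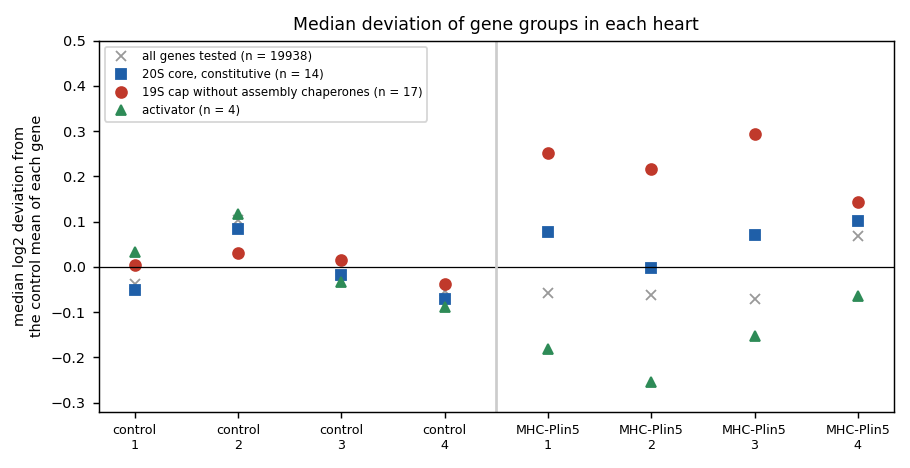
For each heart (horizontal axis), the median over a gene group of the log2 level minus that gene's mean in control hearts (vertical axis). The 17 cap subunits stand at 0.14 to 0.29 in the MHC-Plin5 hearts, the 14 constitutive core genes at -0.00 to 0.10 and the 4 activator genes at -0.26 to -0.06, while the median of all genes is above 0 in control 2 and MHC-Plin5 4 only.

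Seen by heart, the 17 cap genes had a median deviation from the control means of 0.25, 0.22, 0.29 and 0.14 in MHC-Plin5 1 to 4, and of 0.00, 0.03, 0.02 and -0.04 in control 1 to 4. The 14 core genes had 0.08, -0.00, 0.07 and 0.10 in the MHC-Plin5 hearts and -0.05, 0.08, -0.02 and -0.07 in the control hearts. The cap medians of the groups did not overlap and the core medians did. The median of all genes was -0.06, -0.06, -0.07 and 0.07 in MHC-Plin5 1 to 4, so the cap genes stood least above it in MHC-Plin5 4.

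The activators showed the 1 fall. Psme1 and Psme2 form the PA28 ring, which opens the core without ATP or ubiquitin and is raised by interferon in many cells, while Psme3 forms a nuclear ring and Psme4 is a large single-chain activator. Psme1 was at 10.38, 10.25, 10.28 and 10.36 in control 1 to 4 and at 9.65, 9.22, 9.29 and 9.97 in MHC-Plin5 1 to 4. The groups did not overlap, and the lowest hearts, MHC-Plin5 2 and 3, were those with the highest Plin5. These 2 hearts also had the lowest Myh6, at 12.98 and 13.06, against 13.34 and 13.46 in MHC-Plin5 1 and 4. A relation of Psme1 to the level of Plin5 was not tested. The difference was -0.79 (SE 0.15, adjusted p = 0.0211), a 1.73-fold fall. Without MHC-Plin5 4 it was -0.93 (adjusted p = 0.00227).

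Its partner Psme2 was at 9.76, 10.15, 10.02 and 9.88 in control 1 to 4 and at 9.68, 9.68, 9.76 and 9.91 in MHC-Plin5 1 to 4. These groups overlapped, with a difference of -0.20 (SE 0.11, adjusted p = 0.415). The log2 ratio of Psme1 to Psme2 went from 0.36 ± 0.23 to -0.23 ± 0.28 (SD, n = 4 each), a shift of -0.59 (exact two-sided permutation p = 0.0286, adjusted over the 4 ratios 0.0571). This ratio was chosen after the values were seen, so it is no separate test of the fall of Psme1. Psme3 was at 9.99, 10.06, 9.91 and 9.81 in control 1 to 4 and at 10.03, 9.97, 9.94 and 10.06 in MHC-Plin5 1 to 4, and Psme4 at 11.42, 11.52, 11.37 and 11.30 and at 11.31, 11.16, 11.30 and 11.32. Their differences were 0.05 and -0.13, with overlapping groups. A further array row names both Psme2 and its copy Psme2b and was not used.

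The genes beside Psme1 on its chromosome were not called. In the RefSeq table of GRCm38.p6 the protein-coding neighbours of Psme1 are Fitm1, on the same strand, and Emc9, on the other strand with a gene model that overlaps that of Psme1. Psme2 lies on the same chromosome, with its promoter window at chr14:55591052-55591351, against chr14:55578244-55578543 for Psme1. Fitm1, a lipid droplet formation protein of striated muscle, was at 11.72, 11.69, 11.81 and 11.64 in control 1 to 4 and at 11.16, 10.28, 9.44 and 11.49 in MHC-Plin5 1 to 4. Its groups did not overlap, and the difference of -1.12 (SE 0.35) was not called (adjusted p = 0.123). Emc9, of a membrane protein insertion complex, was at 7.57, 7.65, 7.58 and 7.44 in control 1 to 4 and at 7.37, 6.96, 6.91 and 7.63 in MHC-Plin5 1 to 4, with a difference of -0.34 (SE 0.15, adjusted p = 0.291). Psme1, Fitm1 and Emc9 were all lowest in MHC-Plin5 2 and 3 and higher in MHC-Plin5 1 and 4. A shared transcript or shared probe signal at this locus was not tested. The neighbours were looked up for all 5 called members after the calls were known. Of the other 8 neighbours 0 were called, and 7 lay between -0.21 and 0.03. The exception was Wwp2, a ubiquitin ligase beside Psmd7, with 0.46 (SE 0.12, adjusted p = 0.0577).

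**Figure D5:**
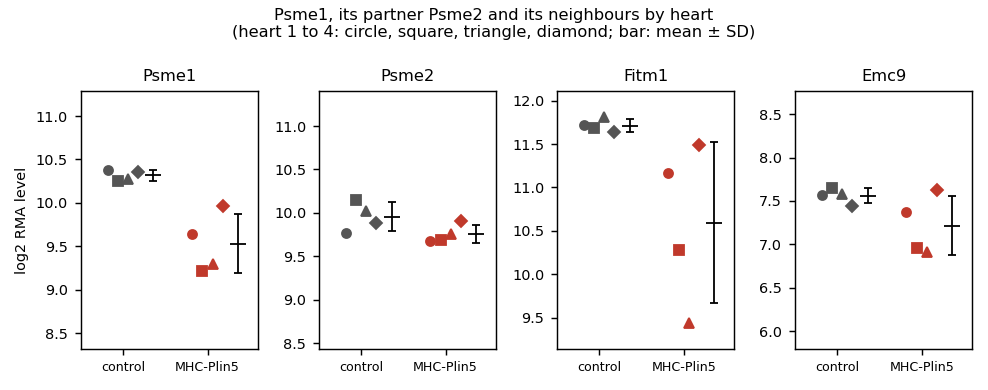
Log2 RMA level (vertical axis) in each heart of Psme1, its partner Psme2, which lies on the same chromosome, and its adjacent genes Fitm1 and Emc9. Grey symbols are control and red symbols MHC-Plin5 hearts, with mean ± SD (n = 4) beside them. Psme1, Fitm1 and Emc9 are lowest in MHC-Plin5 2 (square) and MHC-Plin5 3 (triangle), while Psme2 is lowest in MHC-Plin5 1 and 2.

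The remaining members were not called. Psmf1, the proteasome inhibitor PI31, had a difference of -0.02 (adjusted p = 0.933). The core assembly chaperones Psmg1 to Psmg4 had 0.02, 0.24, -0.04 and 0.01, of which Psmg2 alone had groups without overlap (adjusted p = 0.204). The germ cell alpha subunit Psma8 and the thymus catalytic subunit Psmb11 had mean levels of 4.94 and 5.18 and differences of 0.12 and 0.09. The interacting proteins Psmc3ip, which acts in meiotic recombination, and Psme3ip1 share the symbol stem without being proteasome subunits, and had -0.02 and 0.17.

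Other genes of the pathway were taken from lists of partners. Among 10 measured partners of the 26S proteasome, 2 were called higher and 0 lower, with a median of 0.05. Over all genes, 2.08% were called higher and 1.17% lower. In the fit of genes with a mean of at least 7, 8.84% were called in either direction. The partner lists here and below are small, and no count was tested against these shares. Sem1, the smallest lid subunit, was at 9.02, 9.28, 9.37 and 9.22 in control 1 to 4 and at 9.99, 9.86, 9.91 and 9.96 in MHC-Plin5 1 to 4. Its difference of 0.71 (SE 0.10, adjusted p = 0.00398), or 1.63-fold, was larger than the rise of each Psm gene, and the groups did not overlap. Uchl5, a deubiquitinase bound to the cap, went from 7.70 ± 0.15 to 8.16 ± 0.07 (SD, n = 4 each; difference 0.45, adjusted p = 0.0374). Usp14, the other deubiquitinase that binds the cap reversibly, had 0.25 (adjusted p = 0.182), and Pomp, the maturation factor of the core, 0.05.

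Of 11 measured genes listed under transcriptional control of the proteasome, 2 were called higher and 0 lower, against 2.08% and 1.17% of all genes. Their median was 0.10. The list also holds Keap1 and Ngly1, which are not transcription factors. Mafk and Mafg, small Maf proteins that pair with NRF1 and NRF2 on DNA, rose by 0.58 (SE 0.12, adjusted p = 0.0307) and 0.43 (SE 0.10, adjusted p = 0.0386). Nfe2l1, which encodes NRF1, the factor that raises proteasome genes when proteasome activity is low, had 0.25 (adjusted p = 0.316), and Nfe2l2, which encodes NRF2, 0.30 (adjusted p = 0.158). Among 11 measured shuttle factors and partners of the unfoldase VCP, 1 was called higher and 0 lower, against 2.08% and 1.17% of all genes. This was Ubxn4, a membrane anchor for VCP, with 0.61 (SE 0.14, adjusted p = 0.0454), while Vcp had 0.22 (adjusted p = 0.313).

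Upstream of the proteasome, 0 of 16 ubiquitin-conjugating enzymes were called, with a median of 0.05, and the largest difference in size was that of Ube2d1 (-0.29, adjusted p = 0.193). Of 15 measured ubiquitin ligases of muscle and of protein quality control, 1 was called higher and 0 lower, against 2.08% and 1.17% of all genes. The median of these ligases was -0.06. Trim54, a sarcomere ligase of the MURF family, rose by 0.47 (SE 0.10, adjusted p = 0.0289). The atrophy ligases Trim63 and Fbxo32 had -0.21 (adjusted p = 0.470) and 0.10 (adjusted p = 0.820). Of 6 listed genes of ubiquitin and its activating enzymes, only Uba6 had a row of its own here (0.25, adjusted p = 0.473).

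Markers of other cell types were read beside these values. None was called among 6 endothelial, 6 fibroblast, 5 smooth muscle and pericyte, 4 adipocyte and 4 atrial markers measured, nor was Alas2 for erythroid cells. The fibroblast markers had a median of 0.33 with 6 of 6 above 0, and their mean ran from 8.96 to 9.43 in control and from 9.14 to 9.81 in MHC-Plin5 hearts. The atrial markers had a median of 0.87, and their mean ran from 7.77 to 11.61 in control and from 8.57 to 11.43 in MHC-Plin5 hearts. The endothelial, smooth muscle and adipocyte medians were -0.11, 0.04 and -0.49. The part of these cells in the proteasome values was not tested.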

How the data were processed

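The submitters' processing notes name RMA and Affymetrix Expression Console for the authors' deposited values, which run from 2.02 to 14.7 and were read as log2 levels. The version, the background settings and the scan dates were not stated there, so background correction was not redone and no scan batch was tested. Of 35556 rows, 21789 carry exactly 1 symbol in GEO's platform annotation, 1621 several and 12146 none. For each gene the row with the highest mean over 8 hearts was kept, which left 19938 genes with no filter on low levels. Genotype was the only term in lmFit and eBayes of limma 3.58.1 (R 4.3.3), two-sided, with Benjamini-Hochberg adjustment over all genes, and the fit was tested on simulated data. Differences are MHC-Plin5 minus control in log2 units, and a fold is 2 to that power. All 50 gene IDs of members matched RefSeq. The members, the roles, the partner and marker lists and the motifs were chosen with earlier results of these data known. Named are all members, the called genes of each partner list or up to 3 with the smallest p, genes of stated roles chosen after their values were seen, and up to 2 of some cell type lists. Heart numbers were not taken as pairs. The precision is limited by 4 arrays in each group. Python 3.11.15, pandas 2.3.3 and matplotlib 3.10.9 made the tables and plots.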

Additional observations from a re-analysis of the deposited data

Results flagged for a closer look

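In 12 of 120 groups of 4 hearts, over the members, Plin5, Myh6, Fitm1, Emc9 and the called partner genes, 1 heart stood far from the other 3 by Dixon's criterion, and chance gives about 1 in 20. Low in MHC-Plin5 4 were Psmc6 (8.85, others 9.92 to 10.07) and Psmd6 (9.19, others 9.74 to 9.79). High in the same heart were Psmg4 (8.18, others 7.40 to 7.51) and Psmb6 (10.67, others 10.52 to 10.53). In control 2, Psmd11 was low (9.10, others 9.44 to 9.49), and Psmg4 (7.95, others 7.52 to 7.57), Psmb7 (10.59, others 10.35 to 10.39) and Psmb9 (8.62, others 8.19 to 8.24) were high. These 2 hearts hold 8 of the 12 values and have the highest array medians. The other 4 values were Psmd4 in control 1 (8.39, others 8.61 to 8.63), Psmd12 in control 4 (9.83, others at least 9.98), Psmd10 in MHC-Plin5 3 (8.67, others 8.45 to 8.49) and Psme4 in MHC-Plin5 2 (11.16, others 11.30 to 11.32).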

How the results depend on the processing

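The count of called members, 5 in the report, was 8 with genes under a mean of 7 left out and 8 with array weights, fits in which 8.84% and 8.15% of all genes were called, against 3.25%. It was 8 at an adjusted p under 0.1. It was 0 by limma at an adjusted p under 0.01 (14 with an unadjusted p under 0.05), and 1 (Psme1) with the heart number as a replicate block, where 2.54% of all genes were called. The deviations of same-numbered hearts from their group means had correlations of 0.19, 0.03, -0.11 and -0.04 for numbers 1 to 4. Hearts of different numbers were not compared, so these values cannot show whether the numbers pair hearts. The labels do not say that they do, and the block was not used in the main fit. The count was 0 to 6 with 1 heart left out, while 1.17% to 5.89% of all genes were called. The cap median of 0.16 and the core median of 0.06 were 0.22 and 0.11 without control 2 and MHC-Plin5 4, and 0.12 and 0.00 after a further quantile normalization, which also left 18 of the 20 cap genes above 0, Psmc5 and Psmd12 excepted. No called gene changed sign in the settings run, while members with differences near 0, such as Psmb6, Psmb7 and Psmf1, changed sign under at least 1 scaling. Another scaling moved the median of all genes by at most 0.04, and the share of all genes above 0 from 42.5% to 52.4% after median centring.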
